A study of Mus musculus with 3 samples.

Results

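GLI3 binding was examined around 6 homeobox genes of the paired type that are known from limb mesenchyme, Alx4, Alx1, Prrx1, Prrx2, Shox2 and Pitx1. Every listed GLI3 peak was taken whose summit lay within 200 kb of an annotated transcription start site (TSS) of one of these genes in the mm10 genome. This gave 60 of the 17149 listed peaks, and no peak was shared by 2 of the genes. Of these, 37 had a false discovery rate (FDR) below 0.05, the threshold at which 7282 peaks of the whole list passed. The peaks came from FLAG ChIP-seq, in which chromatin bound by a FLAG-tagged protein is recovered with an antibody and sequenced, on mouse forelimb buds taken at E10.5 (embryonic day, 32 to 35 somites). The endogenous Gli3 allele carries the tag, the strain background is mixed, and the genotype label reads wild type. There were 2 ChIP replicates, each from 2 pooled litters, and 1 input library, all amplified with 15 PCR cycles. The labels name no sorting, so the list does not separate anterior from posterior cells or mesenchyme from ectoderm. The replicates enter 1 joint list without values of their own, so no value below carries a replicate error. Read totals are not part of it either, and since the study states only a lower bound on depth, the exact depth of each library is not known here. Intervals beside shares are 95% Wilson intervals and reflect the number of peaks counted, not variation between embryos.

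Paired-type homeobox genes encode transcription factors whose homeodomain resembles that of the Drosophila protein Paired, and many of them bind as dimers to a pair of facing TAAT half-sites. In the limb bud they act in the mesenchyme, which forms cartilage, tendon and connective tissue. GLI3 is one of the zinc-finger factors that carry Hedgehog (HH) signal to the genome, and in the anterior limb bud, where that signal is low, it is processed into a repressor. Alx4 is expressed in anterior mesenchyme, and mice without it form extra anterior digits. Alx1 is a close relative best known from craniofacial development. Prrx1 and Prrx2 mark early limb mesenchyme and act together in skeletal growth. Shox2 is needed for the proximal long bones, and Pitx1 sets hindlimb identity and is normally off in the forelimb.

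A GLI match was defined as the 9-base consensus GACCACCCA, or its reverse complement TGGGTGGTC, with at most 1 mismatch within 250 bases of the summit (a window of 501 bases). Among the 37 peaks below the threshold, 8 held such a match in this window and 9 matches were found in all. At the peaks ranked 1139, 2569 and 6410 the match lay in the window but outside the called peak. The 9 matches are shown here because they are the sequences in the windows of these 37 peaks that meet this definition. A further 3 matches in windows of listed peaks at an FDR of 0.05 or more are not printed. Each is read from GRCm38.p6 (mm10), 5′ to 3′ on the strand of the match with the match in capitals, and the substitution gives the consensus base, its position counted from 1 at the 5′ end of the consensus, and the base found.
Alx4 peak ranked 1139 (chr2:93490530-93490570, plus strand, C4A): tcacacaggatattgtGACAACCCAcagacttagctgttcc
Alx4 peak ranked 2569 (chr2:93746581-93746621, plus strand, C4T): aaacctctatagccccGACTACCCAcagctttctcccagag
Prrx1 peak ranked 300 (chr1:163315183-163315223, minus strand, A2C): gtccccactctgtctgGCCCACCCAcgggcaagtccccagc
Prrx2 peak ranked 243 (chr2:30707716-30707756, minus strand, A5T): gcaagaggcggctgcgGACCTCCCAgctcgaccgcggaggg
Prrx2 peak ranked 6410 (chr2:30722140-30722180, minus strand, C3A): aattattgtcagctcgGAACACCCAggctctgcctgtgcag
Shox2 peak ranked 3091 (chr3:66982490-66982530, minus strand, A2C): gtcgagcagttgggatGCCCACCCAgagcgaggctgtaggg
Pitx1 peak ranked 4026 (chr13:55634784-55634824, minus strand, C8G): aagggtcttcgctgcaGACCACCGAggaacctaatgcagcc
Pitx1 peak ranked 5824 (chr13:55727596-55727636, plus strand, C6G): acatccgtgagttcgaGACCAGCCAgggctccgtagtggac
Pitx1 peak ranked 5824 (chr13:55727639-55727679, plus strand, C3A): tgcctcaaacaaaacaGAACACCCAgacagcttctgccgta

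None of the 37 windows held the consensus without a mismatch (0 of 37, which allows a share of up to 8.11% when the limit is set at 3 counts of the total, and up to 9.41% by the Wilson interval), compared with 2.84% of all peaks below the threshold. The same form, GCCCACCCA with A2C, occurred at the best-ranked Prrx1 peak and at a Shox2 promoter peak. A match with C3A occurred both upstream of Prrx2 and at Pcbd2, a gene 104 kb from Pitx1. Of the 9 matches, 3 lay within 50 bases of the summit, namely the Prrx2 match with C3A at 48 bases and both matches at Pcbd2, at 21 and 22 bases. The remaining matches lay 78 to 202 bases away.

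The best-ranked peaks of Prrx2, Prrx1 and Alx4 and the Shox2 peak with a paired homeodomain site are printed next, since the account of each locus returns to them. Capitals mark GLI matches, which read as their reverse complement on this strand, and in the Shox2 window also the paired site.
Prrx2 peak ranked 15 (chr2:30658597-30658757, plus strand): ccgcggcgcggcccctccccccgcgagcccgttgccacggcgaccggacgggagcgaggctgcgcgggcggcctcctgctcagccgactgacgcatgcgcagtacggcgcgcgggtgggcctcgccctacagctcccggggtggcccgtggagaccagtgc
Prrx1 peak ranked 300 (chr1:163314967-163315207, plus strand): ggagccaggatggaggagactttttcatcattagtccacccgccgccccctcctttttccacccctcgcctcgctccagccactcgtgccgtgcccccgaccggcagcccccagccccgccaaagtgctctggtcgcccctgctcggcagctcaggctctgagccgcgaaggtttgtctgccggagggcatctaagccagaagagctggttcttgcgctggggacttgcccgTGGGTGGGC
Alx4 peak ranked 873 (chr2:93625187-93625347, plus strand): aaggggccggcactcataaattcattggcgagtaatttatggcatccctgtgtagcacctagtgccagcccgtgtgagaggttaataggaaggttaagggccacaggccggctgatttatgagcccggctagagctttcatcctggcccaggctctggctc
Shox2 peak ranked 3091 (chr3:66982332-66982526, plus strand): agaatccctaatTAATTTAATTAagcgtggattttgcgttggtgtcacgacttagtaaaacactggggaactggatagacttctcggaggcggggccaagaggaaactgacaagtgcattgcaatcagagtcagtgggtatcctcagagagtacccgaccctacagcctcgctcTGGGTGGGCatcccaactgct

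The windows of the best-ranked Prrx2 and Alx4 peaks hold no capitals because neither peak had a GLI match within 250 bases of its summit. The paired homeodomain site was searched as TAAT and ATTA separated by 3 bases, a pattern that reads the same on both strands. It was found in 1 of the 37 windows, at Shox2, and in 0.508% of all peaks below the threshold. The Shox2 site lay 83 bases from the summit, at chr3:66982344-66982354.

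Across the 6 loci, GLI3 peaks were unevenly spread. Prrx2 had the most peaks below the FDR threshold within 200 kb, 13 of its 17 listed. Within 100 kb the order changed, with 7 at Prrx1 and 5 each at Prrx2 and Alx4. Alx4 had 8 of 13 and Prrx1 8 of 12, Alx1 had 3 of 5 and Shox2 3 of 6, and Pitx1 had 2 of 7. In all, 37 of 60 listed peaks passed (61.7%, 49.0 to 72.9), beside 42.5% of the whole list. This was not tested, and neighbouring peaks are not independent. For 18 of the 37 peaks the nearest protein-coding TSS belonged to the member gene, and for the other 19 it belonged to a neighbour. Summits lay upstream of the nearest member TSS in 22 cases and downstream in 15.

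**Figure D1:**
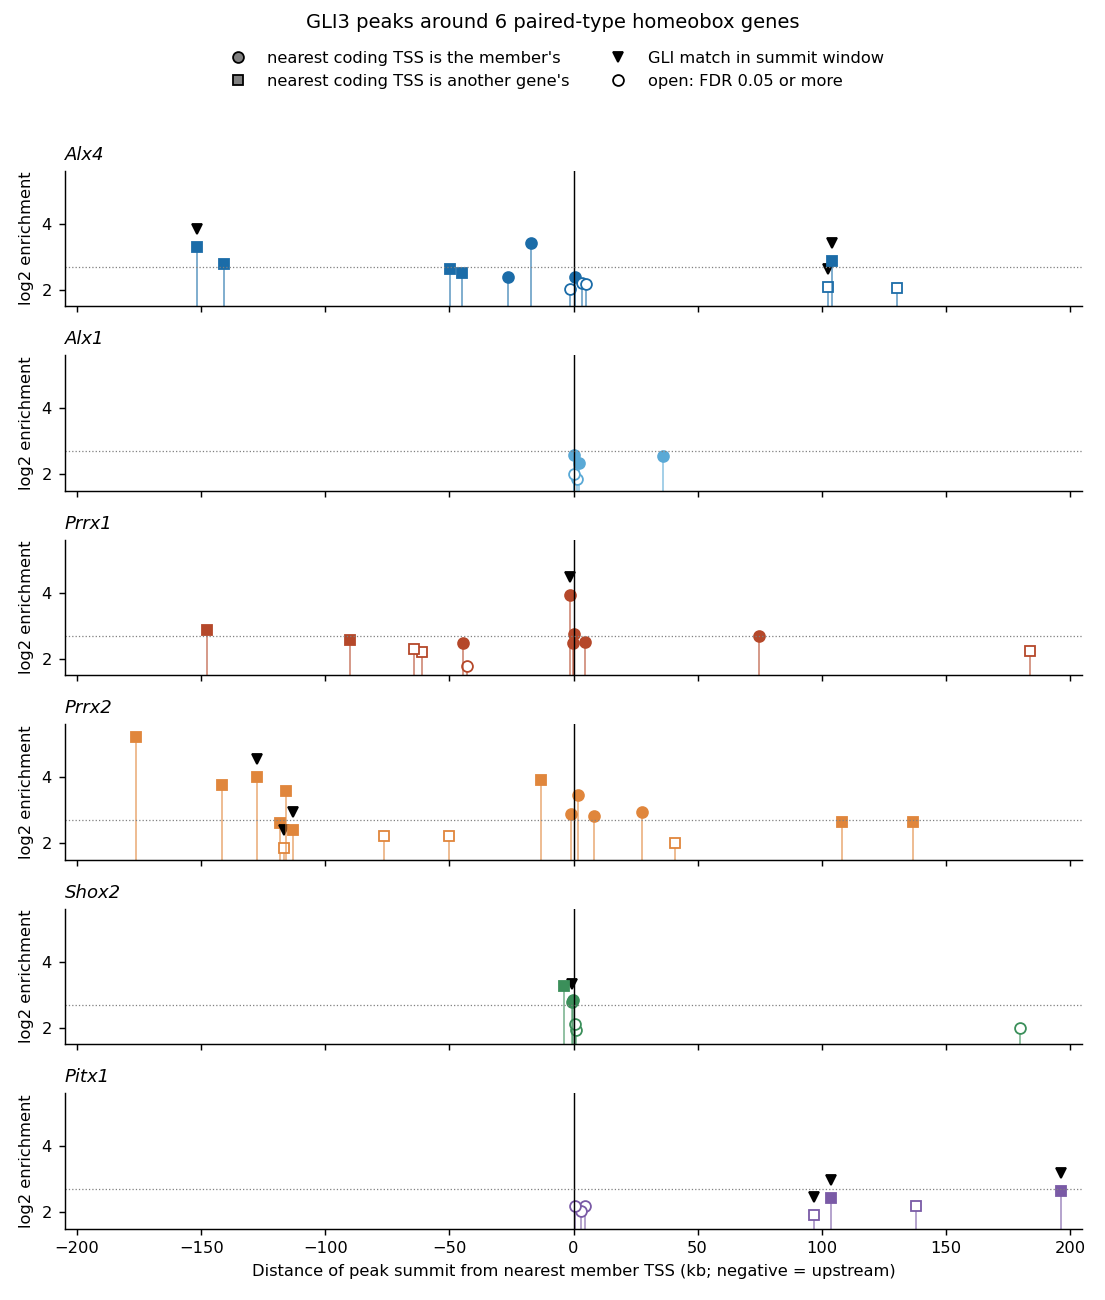
Listed GLI3 peaks at each gene, by distance of the summit from the nearest TSS of that gene (kb, x axis) and maximum log2 fold enrichment over input (y axis). Circles have the member's as the nearest protein-coding TSS, squares another gene's, filled symbols have an FDR below 0.05, triangles mark a GLI match and the dotted line is the median of all peaks below the threshold (2.69). The highest symbol is the Prrx2 peak at 5.21, 176 kb upstream, and the 3 symbols at Pitx1 itself are open.

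At Alx4 (chr2:93642384-93681339, plus strand), most GLI3 signal lay away from the promoter. The best-ranked peak (rank 873, chr2:93625100-93625449) was intergenic, 17117 bp upstream of the TSS, with a log2 fold enrichment of 3.42, a −log10 Poisson p of 25.3 and an FDR listed at 0. No GLI match was found in its summit window, printed above. A second intergenic peak with the Alx4 TSS as its nearest, 26.2 kb upstream, was weaker (rank 6408, log2 2.39, FDR 0.0374). The Alx4 promoter itself held a peak near the threshold, in a coding exon 599 bp inside the gene (rank 6513, log2 2.38, FDR 0.0374).

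The other 5 peaks within 200 kb of Alx4 were nearer to the TSS of another gene. The stronger of the pair far upstream lay 152 kb away (rank 1139, chr2:93490600-93490799, log2 3.29), nearest to Cd82, which encodes a membrane protein of the tetraspanin family. Its summit window held the match with C4A. Its neighbour 10.7 kb nearer had a log2 fold enrichment of 2.76 and no match (rank 3193). A second pair, 49.9 and 45.1 kb upstream, had values of 2.63 and 2.50 (ranks 4099 and 5234) and was nearest to the predicted gene Gm10803. Downstream, an intron of Ext2, whose product helps to build heparan sulfate, held a peak 104 kb from Alx4 with the match C4T (rank 2569, log2 2.88). So the 2 Alx4 peaks with a GLI match in the summit window were both over 100 kb from its TSS, and the 5 peaks within 50 kb had none. Both matches lay outside the called peaks, so no Alx4 peak below the threshold held a match within its called extent. The 5 listed peaks at an FDR of 0.05 or more had values of 2.03 to 2.19, and 3 of them lay within 5 kb of the TSS.

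At Alx1 (chr10:102998707-103030215, minus strand), the peaks were few and near the median of the list or below it. No other protein-coding TSS lies within 200 kb of its TSSs, so all 3 peaks below the threshold had Alx1 as nearest gene. The strongest lay in the 5′ part of the gene, in a UTR 170 bp from one of 5 annotated TSSs (rank 4459, chr10:103028500-103028799, log2 2.58, FDR 0.00704). A second was in an intron 2120 bp from a TSS (rank 6891, log2 2.34, FDR 0.0374), the lowest value among the 37. The third was intergenic, 36.1 kb downstream of the TSS (rank 4720, log2 2.55), in sequence of low GC content (36.9%). None of the 3 held a GLI match. Extending the distance to 500 kb added no Alx1 peak below the threshold, and the next one lay 2401 kb away.

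Prrx1 (chr1:163245119-163313710, minus strand) carried its strongest binding at the promoter. The peak ranked 300 (chr1:163314400-163315299) was 900 bp long, with its summit 1317 bp upstream of the TSS, a log2 fold enrichment of 3.92, a −log10 Poisson p of 54.9 and an FDR listed at 0. It held the match with A2C, 176 bases from the summit. A pair of further promoter peaks followed within 1.5 kb, at 387 bp upstream (rank 5606, log2 2.46) and in a UTR 61 bp downstream of a TSS (rank 3233, log2 2.75). Neither held a match. Prrx1 thus had 3 peaks at its own promoter below the threshold, with summits 490 and 930 bp apart.

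Away from its promoter, the other 5 Prrx1 peaks were weaker than the peak ranked 300 and held no match, with values in the range of the other promoter peaks or slightly above. An intronic peak 4656 bp inside the gene had a log2 fold enrichment of 2.51 (rank 5106). Intergenic peaks with Prrx1 as the nearest TSS lay 44.6 kb upstream (rank 5460, log2 2.47) and 74.6 kb downstream of the TSS, beyond the 3′ end of the gene (rank 3585, log2 2.70). The upstream neighbour Gorab, which encodes a Golgi protein, accounted for the last pair. One was at its promoter, 90.1 kb from Prrx1 (rank 4611, log2 2.56), and one lay 148 kb from Prrx1 and 57.8 kb from Gorab (rank 2547, log2 2.88). The 4 listed Prrx1 peaks above the threshold had values of 1.78 to 2.30.

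Prrx2 (chr2:30834972-30881251, plus strand) had the best-ranked GLI3 peak of the 6 loci within 200 kb, at rank 15. Within 100 kb its best peak ranked 306, behind the Prrx1 peak ranked 300. Of the 37 peaks, 8 (21.6%) ranked 1000 or better in the whole list, beside 13.7% of all peaks below the FDR threshold, and 6 of these 8 were near Prrx2. Its own promoter held a peak 1195 bp upstream of the TSS (rank 2521, log2 2.89). Introns of Prrx2 held 3 others, at 1795 bp (rank 800, chr2:30836250-30836999, log2 3.47), 8133 bp (rank 2837, log2 2.82) and 27.8 kb (rank 2235, log2 2.96) from the nearest Prrx2 TSS. All 4 had an FDR listed at 0, and none held a GLI match in its summit window. These 4 were the Prrx2 peaks whose nearest protein-coding TSS was that of Prrx2.

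A group of 6 peaks lay 113 to 176 kb upstream of Prrx2, spread over 63.4 kb. The farthest, ranked 15 of all listed peaks (chr2:30657600-30659349), was 1750 bp long and had a log2 fold enrichment of 5.21, and its −log10 Poisson p stood at 100, the ceiling of that column. Its summit lay in an exon of the long noncoding RNA gene Gm14486 and in an intron of another, 9330198N18Rik, and the nearest protein-coding TSS was that of Cstad, 63.6 kb away. The 501 bases around its summit, of which the middle is printed above, had a GC content of 72.1%, the highest of the 37. Their ratio of observed to expected CpG was 0.882. No match lay within 250 bases of the summit, but the whole peak held a pair, GGCCACCCA (A2G) and GACCCCCCA (A5C), 683 and 647 bases from the summit.

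The remaining 5 peaks of the group lay between 142 and 113 kb upstream. The one ranked 243 (chr2:30707300-30708799) was 1500 bp long, had a log2 fold enrichment of 4.01 and held the match with A5T. Those ranked 429 and 624 had values of 3.77 and 3.59 without a match. Those ranked 4122 and 6410 had 2.63 and 2.39, the last with the match C3A in its window but outside the called peak. The last 4 summits of the group followed each other at gaps of 9.14, 2.48 and 2.88 kb, partly within introns of the noncoding gene Gm14488. None of the 6 peaks of the group was at a protein-coding promoter. Their nearest protein-coding TSS was that of Cstad for 2 and 1700001O22Rik for 4, each at least 63.6 kb off.

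Another strong peak lay 13.2 kb upstream of Prrx2, in an intron of Ntmt1, whose product methylates the N-termini of proteins (rank 306, chr2:30821550-30821999, log2 3.92). Its nearest protein-coding TSS was that of Asb6, 8.52 kb away. The genome assembly masks 84.2% of its summit window as repeat, and 63.3% of that of the peak ranked 429. These were the 2 of 37 windows that were at least 50% masked (5.41%, 1.50 to 17.7), beside 0.851% of all peaks below the threshold. How far multiply mapping reads bear on these 2 values was not tested. The last Prrx2 peaks were at promoters of downstream genes, Tor1b, a torsin ATPase, at 108 kb (rank 3975, log2 2.64) and BC005624 at 137 kb (rank 4016, log2 2.64).

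Shox2 (chr3:66971727-66981771, minus strand) had its binding packed at the promoter. Both peaks of its own promoter were upstream of the TSS, at 86 bp (rank 2801, chr3:66981450-66982249, log2 2.83, FDR listed at 0) and 661 bp (rank 3091, chr3:66982350-66982899, log2 2.78, FDR 0.000315), and their summits were 575 bp apart. The second held the GLI match with A2C, 78 bases from the summit, and on the other side of the summit the paired homeodomain site. The third peak, 4026 bp upstream, was the strongest of the locus (rank 1192, chr3:66985500-66986049, log2 3.27), but it lay in a UTR of Rsrc1, 93 bp from a TSS of that gene, whose product acts in RNA splicing. The genes overlap head to head, with the first annotated Rsrc1 TSS 381 bp inside Shox2, so both Shox2 promoter peaks also lay in an intron of Rsrc1, 467 and 1042 bp from that TSS. Which of the genes a peak here belongs to cannot be told apart by position. Of the 3 listed peaks above the threshold, 2 were in an intron of Shox2 (log2 1.92 and 2.10) and 1 was 180 kb downstream (log2 1.98). From 4.03 kb outwards to 200 kb no further peak passed the threshold, and within 500 kb there were 7 in all.

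**Figure D2:**
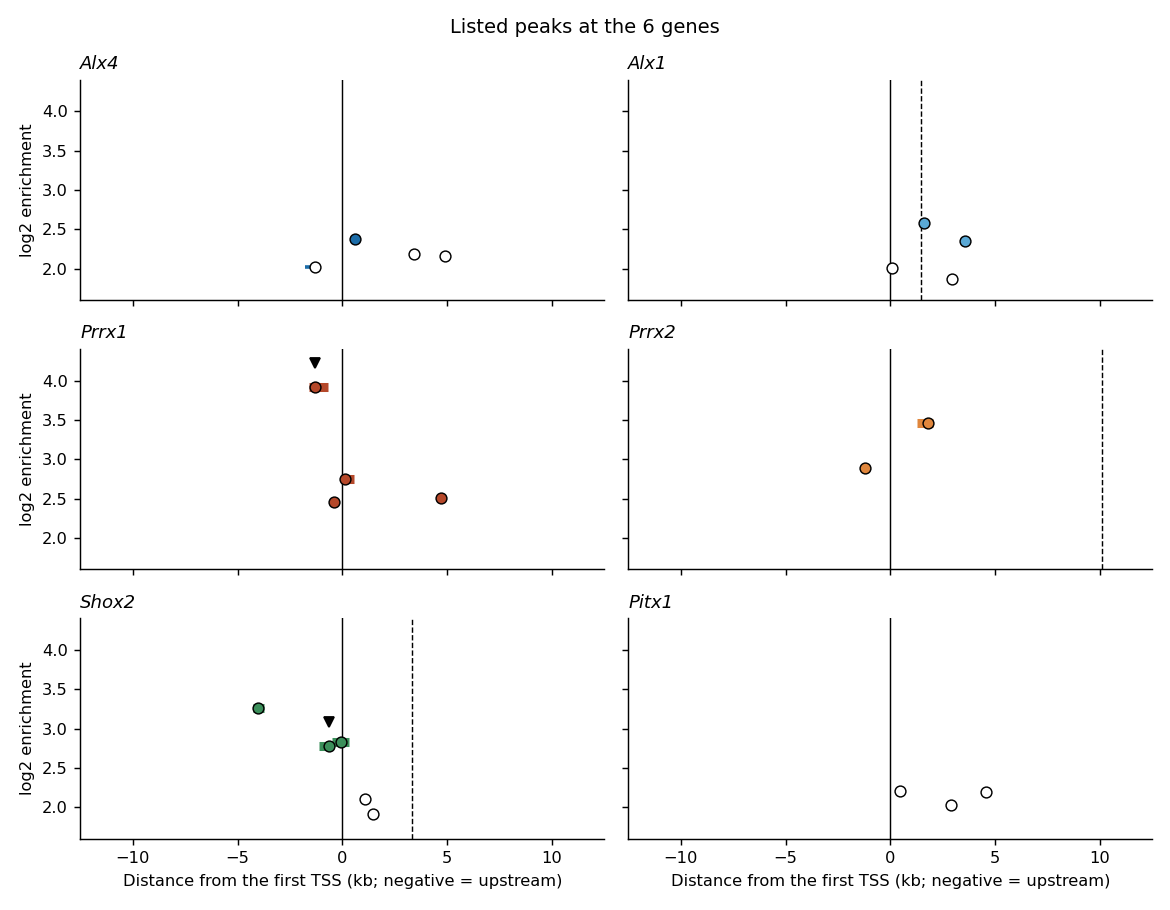
Listed peaks near the start of each gene, by distance from its most upstream TSS (kb, x axis) and maximum log2 fold enrichment (y axis). Circles are summits (filled for an FDR below 0.05), thick bars the extent of the peak, triangles GLI matches, and the dashed line the most downstream TSS where it is over 0.2 kb away. Prrx1 and Shox2 show filled groups upstream of the TSS, the highest at Prrx1 with 3.92, and Pitx1 shows open symbols from 2.03 to 2.20.

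Pitx1 (chr13:55825051-55836192, minus strand) had no GLI3 peak below the FDR threshold at the gene. Within it, 3 weak peaks were listed, in a UTR 443 bp from the TSS (rank 8912, log2 2.20, FDR 0.133), in a coding exon (rank 12101, log2 2.03, FDR 0.438) and in an intron (rank 9205, log2 2.19, FDR 0.133). The lowest log2 fold enrichment among all peaks that passed was 2.31. An antisense gene, Gm47071, covers all 3 summits. Both peaks that passed lay at promoters of other genes downstream. One was at Pcbd2, an enzyme of pterin metabolism, 104 kb away (rank 5824, chr13:55727500-55727799, log2 2.44), and held a pair of matches, C6G and C3A. The other was at Ddx46, an RNA helicase of the spliceosome, 196 kb away (rank 4026, chr13:55634800-55635099, log2 2.64), and held the match with C8G. Counted from the 5′ end of the gene record in place of its annotated TSS, the Ddx46 peak fell outside 200 kb and 1 peak remained. No peak below the threshold had Pitx1 as the nearest protein-coding TSS. Whether weak listed peaks at Pitx1 are bound sites cannot be read from a list without replicate values.

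Prrx2, Alx4 and Prrx1 stood high among protein-coding genes by the number of peaks around them. A count of 13 or more within 200 kb, as at Prrx2, was reached by 0.779% of 21827 genes, and a count of 8 or more, as at Alx4 and Prrx1, by 5.12%. The 3 peaks of Alx1 and of Shox2 were reached by 33.7%, and the 2 of Pitx1 by 47.4%. At least 1 peak lay within 200 kb of all 6 members, beside 66.1% of all genes. The median count was 5.5 for the members and 1 for all genes. Gene density bears on this count, because peaks at neighbouring promoters enter it. Prrx2 has 8 other protein-coding genes with a TSS within 200 kb, Pitx1 5, Alx4 3, Prrx1 and Shox2 1 each and Alx1 none.

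Counting each peak once, for the gene with the nearest protein-coding TSS at any distance, moved Prrx1 to the front. It had 6 such peaks, a number reached by 0.444% of genes. Prrx2 had 4 (1.32% of genes), Alx4, Alx1 and Shox2 had 3 each (2.57%), the Shox2 count including 1 peak 239 kb from its TSS, and Pitx1 had none. At least 1 peak was assigned in this way to 5 of the 6 members, beside 21.6% of all genes. The spacing of genes bears on this count too, because a gene with few neighbours is the nearest over a longer stretch.

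The other genes of the paired class ranged from no peak to 7 within 200 kb. Of 27 such genes outside the limb set, 18 (66.7%) had a peak below the threshold within 200 kb, with a median count of 2, and 10 (37.0%) had one nearest to them, with a median of 0. Phox2a, a regulator of autonomic neurons, had the most within 200 kb, with 7. There were 9 with no peak within 200 kb, among them Drgx, Isx, Mixl1, Otx2 and Pax6. The members were chosen as limb genes, and the difference between the sets was not tested.

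**Figure D3:**
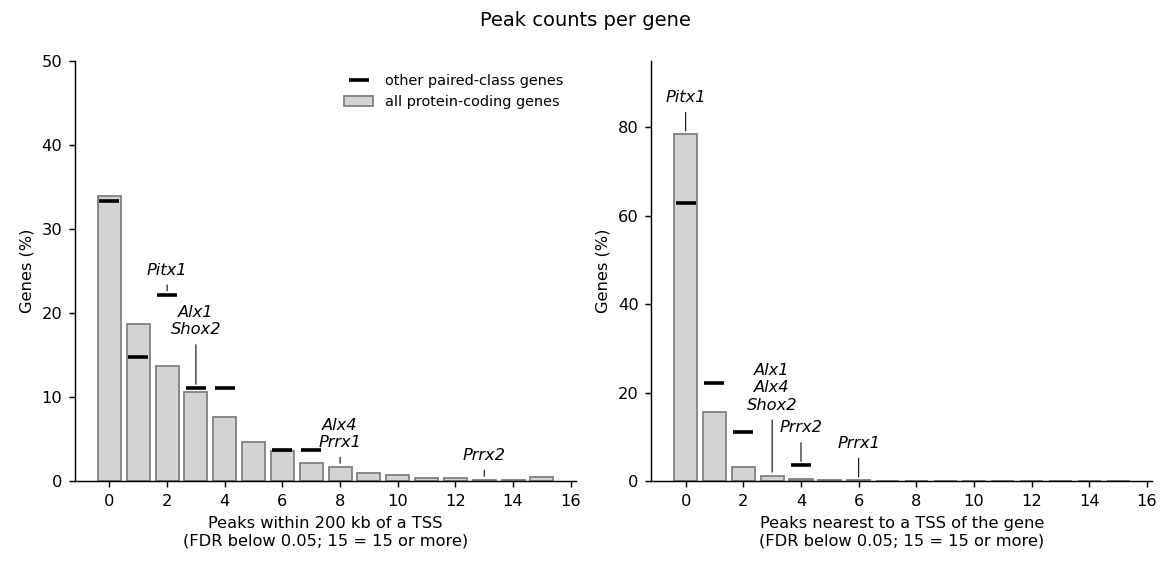
Share of genes (%, y axis) by the number of GLI3 peaks with an FDR below 0.05 within 200 kb of a TSS (left) or nearest to one (right). Grey bars are 21827 protein-coding genes, black dashes 27 other paired-class genes, and the 6 members are named above their counts, with Prrx2 at 13 on the left and Prrx1 at 6 on the right.

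The enrichment of the 37 peaks was close to that of the list, while their base composition differed by class. Their median log2 fold enrichment was 2.75 (quartiles 2.55 and 3.27, range 2.34 to 5.21), beside 2.69 for all peaks below the threshold. Medians by gene were 2.96 at Prrx2, 2.83 at Shox2, 2.70 at Alx4, 2.63 at Prrx1, 2.55 at Alx1 and 2.54 at Pitx1, an order that cannot be set against replicate error. The median length was 300.0 bp and the median GC content of the summit windows 56.3%, beside 400.0 bp and 58.7% for the list. The pooled GC medians combine differences in opposite directions, with 60.0% at the promoter peaks beside 65.7% in the list, and 54.1% at the distal peaks beside 50.3%. The median ratio of observed to expected CpG was 0.484, beside 0.624, and by class it was 0.746 beside 0.829 at promoter peaks and 0.367 beside 0.290 at distal peaks. None of these differences was tested.

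At 200 kb, the share of peaks with a GLI match lay close to that of the whole list. A match was present in the summit window of 8 of 37 peaks (21.6%, 11.4 to 37.2), beside 20.8% of all peaks below the threshold. This depended on the distance, and at 100 kb the share was 8.70% of 23 peaks. When the called peak was searched in place of the window, the share was 16.2%, beside 19.9% of the whole list. The rate of such matches in unbound sequence was not measured, so a match is not shown to be a bound site. At promoters, 4 of 14 peaks held one (28.6%, 11.7 to 54.6). Elsewhere, 4 of 23 did (17.4%, 6.98 to 37.1), and both intervals take in the corresponding shares of the list, 17.9% and 24.0%. Of the 8 peaks with a match, 2 had a member as the nearest protein-coding TSS, the Prrx1 peak ranked 300 and the Shox2 peak ranked 3091. Alx1 had none.

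Most of the 37 peaks were distal. A peak was counted at a promoter when it overlapped the window from 2 kb before to 1 kb after a protein-coding TSS by at least 1 bp. This held for 14 of 37 peaks (37.8%, 24.1 to 53.9), beside 52.6% of all peaks below the threshold, a share that the interval still takes in. Of the 14, 8 were at the promoter of a member, spread over 5 genes, and 6 at the promoter of a neighbour. Of the 23 distal peaks, 10 had the member as nearest gene. With the TSSs of all annotated genes, noncoding ones included, 45.9% of the 37 peaks were at a promoter. The whole list was not counted in this way.

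**Figure D4:**
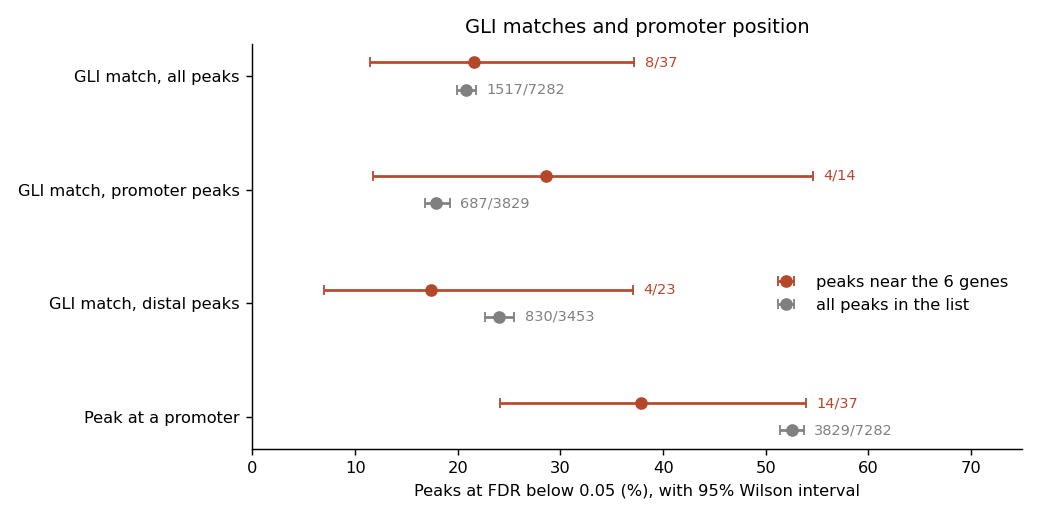
Share of peaks with a GLI match or at a promoter (%, x axis) for peaks near the 6 genes (red) and all peaks of the list (grey), all with an FDR below 0.05. Points are shares, bars 95% Wilson intervals and labels the counts, and each red interval takes in the grey point beside it.

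The distance of 200 kb cut the loci at different places. At Pitx1 the farthest included peak lay 196 kb away (log2 2.64) and the next listed one at 208 kb (log2 2.18, above the FDR threshold). The next Pitx1 peak below the threshold was at 295 kb and strong (rank 655, log2 3.57), without a match. At Prrx2 the first peak beyond the limit, at 230 kb, was itself strong (rank 1790, log2 3.07) and held a match. At Alx4 the farthest included peak was at 152 kb, the next listed at 209 kb (log2 2.19), and the next below the threshold at 465 kb (rank 535, log2 3.67), with a match. For Prrx1 and Shox2 the farthest included peaks, at 184 and 180 kb, and the next listed ones, at 224 and 231 kb, were all above the FDR threshold. Within 500 kb, peaks below the threshold numbered 22 at Prrx2, 9 each at Alx4 and Prrx1, 8 at Pitx1, 7 at Shox2 and 3 at Alx1.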

How the data were processed

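GLI3 ChIP-seq was measured in 2 replicates with 1 input. The submitters' processing notes name Bowtie2 2.2.5 and mm10, and the study's methods name CisGenome with both replicates for peak calling. The list is attached to the first replicate and was treated as their joint call, which it does not state. The deposited FDR is a q-value computed by the authors' caller. The deposited log2 fold enrichment is the authors' maximum over input within a peak. The T statistic, a score, set the authors' ranks, and the deposited −log10 Poisson p stops at 100. The study gives a lower bound on depth but no total per library, so precision per peak could not be derived.

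Coordinates fitted GRCm38.p6 (0 peak ends beyond a chromosome, with 5 peaks on unplaced contigs set aside). TSSs, promoters and genes came from the GENCODE M21 basic set, and Drgx was matched through its other symbol Prrxl1 in the RefSeq table. Distances run from summit to the nearest TSS of the gene. Scripts used Python 3.11.15, pandas 2.3.3, pysam 0.24.0 and samtools 1.23.1, and the counting was tested on simulated data. No significance test was made. By rule, the text names the 6 members, each of their peaks below the FDR threshold, the gene with the nearest protein-coding TSS, and those of 27 paired-class relatives with most and fewest peaks. Some of these relatives are not reported here by name. Members and lists were chosen with earlier results of these data known. Alternatives changed the FDR threshold, distance, TSS set, motif and promoter window.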

Additional observations from a re-analysis of the deposited data

How the results depend on the processing

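Of 86 alternatives over the counts, shares and medians, 60 stayed within the limits, 1.5 times a count, the 95% interval of a share or the quartiles of the median. The peak count of 37 moved to 60 with all listed peaks (where the median log2 fold enrichment was 2.48), 23 at 100 kb, 58 at 500 kb and 18 with the member as nearest protein-coding TSS. The 60 listed peaks became 108 at 500 kb. The share with a GLI match fell to 8.70% at 100 kb (20.8% in the whole list), 8.11% within 100 bases of the summit (11.6% in the whole list) and 0% for the exact consensus. By gene, Pitx1 moved most readily, from 2 to 1 at an FDR below 0.01 or from the 5′ end of the gene only, and to 0 at 100 kb. At an FDR below 0.01, Alx4 and Prrx1 went from 8 to 5 each, and Prrx2 from 13 to 12. At 100 kb Prrx1 had 7, Prrx2 5 and Alx4 5. Chosen after seeing the data were the TSSs of the full annotation, which left every count as it was, and leaving out Prrx2, which gave a GLI share of 25.0%, a promoter share of 45.8% and a median of 2.63. No paired analysis was possible because neither replicate has values of its own, and leaving out each replicate was not run for the same reason.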
